A study of Homo sapiens with 6 samples.

Results

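The suppressor of cytokine signaling (SOCS) family was examined in K562 cells, with its 8 members CISH and SOCS1 to SOCS7 chosen by gene family. All 8 were found among the 12486 genes of the deposited expression table by their Entrez identifiers. All 8 also had a mean of at least 0.1 FPKM (fragments normalized for transcript length and for library size), the filter that left 12276 genes for the test. K562 cells are an established line from human chronic myeloid leukemia with the Bcr-Abl fusion kinase. Total RNA was sequenced from K562 cells stably expressing an shRNA to luciferase as the control (sh-luc) or one to the long noncoding RNA lncRNA-IUR1, which the sample labels call lncRNA-up91 (sh-IUR1). Each group has 3 libraries, named here unnumbered, r1 and r2, and values are always given in that order. Only 1 shRNA against lncRNA-IUR1 was used, and the level of lncRNA-IUR1 itself was not analysed here, which leaves the knockdown unchecked in these libraries. The comparison asks which transcripts differ when lncRNA-IUR1 is knocked down.

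SOCS proteins are feedback inhibitors of cytokine signaling through JAK kinases and STAT transcription factors. Each carries an SH2 domain, which binds phosphorylated tyrosines on receptors or kinases, and a SOCS box, which recruits elongin B, elongin C and cullin 5 into a ubiquitin ligase. STAT factors induce several family members, and in Bcr-Abl-positive leukemia cells STAT5 is kept active by the fusion kinase.

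A promoter window was available for 5 of the 8 members in the RefSeq table of GRCh38.p14, with 6 windows in all because SOCS3 has a pair of start sites. SOCS2, SOCS5 and SOCS7 had no entry. Each window reaches from 250 bases before the start site through the first 50 transcribed bases. The windows were searched for TTCNNNGAA, the GAS-type motif that STAT5 is known to bind, and for its variants with a shorter gap (TTCNNGAA) and a longer gap (TTCNNNNGAA). All 3 motifs read the same on both strands when N is any base. The CISH window held 4 matches to TTCNNNGAA, whose first bases are at -241, -230, -129 and -112 from the start site. A match to this motif was found in 7.66% of the 35116 promoter windows of this length, and 7 of them (0.0199%) held 4 or more. The CISH promoter is printed because it carries these matches. Its 250 bases before the start site lie at chr3:50611775-50612024 on the minus strand and are given in the direction of transcription, with the matches in capitals.
CISH: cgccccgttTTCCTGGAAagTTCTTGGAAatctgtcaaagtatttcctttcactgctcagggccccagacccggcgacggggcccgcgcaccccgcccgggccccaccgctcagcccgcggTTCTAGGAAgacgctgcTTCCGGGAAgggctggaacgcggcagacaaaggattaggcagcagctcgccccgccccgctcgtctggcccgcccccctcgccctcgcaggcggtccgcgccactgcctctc

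In the SOCS3 window at chr17:78360876-78361175 there was 1 match to the motif with the shorter gap, whose first base is at -215 from that start site. This motif was found in 7.74% of the promoter windows and the motif with the longer gap in 6.44%. The 60 bases around the match, chr17:78361107-78361166 on the minus strand, are shown with the match in capitals.
SOCS3: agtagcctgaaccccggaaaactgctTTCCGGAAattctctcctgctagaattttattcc

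The other SOCS3 window and those of SOCS1, SOCS4 and SOCS6 held 0 matches to any of the 3 motifs, which says only that these letters are not in these windows.

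**Figure D1:**
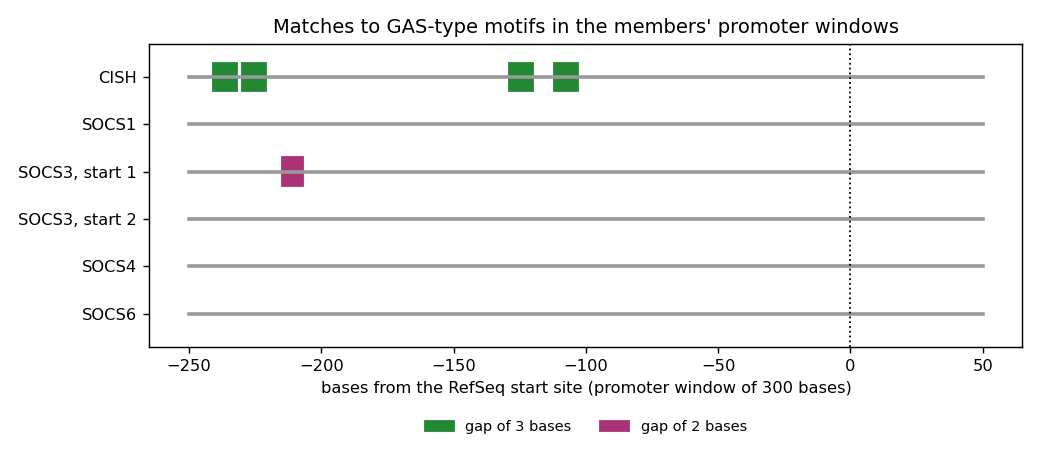
Matches to the GAS-type motifs in 6 RefSeq promoter windows of 5 family members, drawn by distance in bases from the start site (dotted line). Green boxes are matches with a gap of 3 bases (4 in CISH) and the purple box is a match with a gap of 2 bases (1 in SOCS3).

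The members differed widely in level. SOCS2 had the highest mean over the 6 libraries, 184.5 FPKM ± 25.8 (SD, n = 6), followed by CISH at 111.7 FPKM ± 12.4 and SOCS1 at 17.7 FPKM ± 3.11. SOCS7 followed at 4.35 FPKM, SOCS4 at 3.58 FPKM, SOCS3 at 2.55 FPKM, SOCS5 at 2.29 FPKM and SOCS6 at 2.19 FPKM. SOCS2, CISH and SOCS1 were in that order in 6 of 6 libraries, and SOCS1 was above SOCS7 in 6 of 6. SOCS7 was above SOCS4 in 5 of 6 libraries, SOCS4 above SOCS3 in 6 of 6, SOCS3 above SOCS5 in 5 of 6 and SOCS5 above SOCS6 in 4 of 6. The lowest value of SOCS2 (136.5 FPKM) was above the highest of CISH (126.9 FPKM), the lowest of CISH (90.6 FPKM) above the highest of SOCS1 (22.6 FPKM), and the lowest of SOCS1 (14.2 FPKM) above the highest of SOCS7 (4.80 FPKM). From SOCS7 down to SOCS6, neighbours in this order had overlapping ranges. SOCS2 had a higher mean level than 96.6% of the genes tested and CISH than 93.7%, while SOCS6 had a higher one than 20.7%.

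SOCS2 and CISH together held most of the family's transcript level per length. Their share of the summed FPKM of the 8 genes was 88.2%, 91.2% and 89.8% in the sh-luc libraries and 90.7%, 90.1% and 89.9% in the sh-IUR1 libraries. The shares of the groups overlapped, and the lowest share was that of the unnumbered sh-luc library. In the control libraries the FPKM of the family summed to 257.6, 342.6 and 336.1, and in the sh-IUR1 libraries to 354.0, 368.8 and 314.4. Again the unnumbered sh-luc library was the lowest, and sh-IUR1 r2 was below 2 of the 3 sh-luc libraries. In such bulk RNA, fewer cells that express a gene and less RNA per cell cannot be told apart.

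The unnumbered sh-luc library stood apart from the other 5 across the table as well. Its mean Pearson r with the other libraries, over log2(FPKM + 1) of the genes tested, was 0.9938, and for the others this mean was between 0.9956 and 0.9972. It held the lowest of the 6 values for 38.4% of the genes tested and the highest for 24.1%. Differences are therefore given below with and without this library where it moves them most.

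CISH, which binds activated cytokine receptors and is a classical STAT5-induced gene, lies at chr3:50606489-50611774 in RefSeq GRCh38.p14, the annotation used for every position given here. It was expressed at 90.6, 116 and 115 FPKM in the sh-luc libraries and at 117, 127 and 106 FPKM in the sh-IUR1 libraries. The unnumbered sh-luc library was the lowest and sh-IUR1 r1 the highest, and sh-IUR1 r2 lay below 2 sh-luc libraries, so the groups overlapped. The means were 107.0 ± 14.3 FPKM in sh-luc and 116.5 ± 10.6 FPKM in sh-IUR1 (SD, n = 3 each). On the scale of log2(FPKM + 1) its fold change was 0.13, with a 95% interval from -0.10 to 0.35 and a limma p of 0.930 after adjustment over the whole table. It became 0.012 without the unnumbered sh-luc library and 0.19 without sh-IUR1 r2.

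SOCS2, also induced by STAT5 and known for limiting growth hormone signaling, lies at chr12:93569969-93626236. It was expressed at 136.5, 197 and 187 FPKM in sh-luc and at 204, 205 and 177 FPKM in sh-IUR1. Here too the unnumbered sh-luc library was far below the other 5, and sh-IUR1 r2 was below sh-luc r1 and r2. The means were 173.4 ± 32.3 FPKM in sh-luc and 195.5 ± 16.0 FPKM in sh-IUR1 (SD, n = 3 each). Its log2 fold change was 0.19, with a 95% interval from -0.090 to 0.46 and an adjusted p of 0.930 from limma, and it was 0.024 without the unnumbered sh-luc library and 0.29 without sh-luc r1. For CISH and for SOCS2 the difference between the group means was smaller than the SD of the sh-luc libraries.

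SOCS1 inhibits JAK kinases directly and is best known for limiting interferon signaling, and it lies at chr16:11254417-11256204. It was expressed at 14.2, 15.3 and 19.4 FPKM in sh-luc and at 18.8, 22.6 and 16.0 FPKM in sh-IUR1. The highest value was that of sh-IUR1 r1 and the lowest that of the unnumbered sh-luc library, while sh-luc r2 was above 2 of the 3 sh-IUR1 libraries. Its log2 fold change was 0.22, with a 95% interval from -0.082 to 0.52 and an adjusted p of 0.930 from limma. It was 0.098 without sh-IUR1 r1 and 0.34 without sh-luc r2.

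SOCS3, which inhibits JAK kinases bound to the receptor chain IL6ST, lies at chr17:78356778-78360925. It was expressed at 2.84, 2.47 and 2.71 FPKM in sh-luc and at 2.11, 2.38 and 2.79 FPKM in sh-IUR1. The unnumbered libraries were at opposite ends, the sh-luc one highest and the sh-IUR1 one lowest, and sh-IUR1 r2 lay among the sh-luc values. Its log2 fold change was -0.10, with a 95% interval from -0.32 to 0.11 and an adjusted p of 0.930 from limma. It was -0.036 without the unnumbered sh-IUR1 library and -0.18 without sh-IUR1 r2.

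SOCS4 and SOCS5 have long amino-terminal regions and are known for acting on the epidermal growth factor receptor. SOCS4 lies at chr14:55027236-55049489 and was expressed at 4.29, 3.81 and 3.45 FPKM in sh-luc and at 3.37, 2.73 and 3.83 FPKM in sh-IUR1. SOCS5 lies at chr2:46698937-46763129 and was expressed at 2.91, 2.03 and 2.38 FPKM in sh-luc and at 2.10, 1.95 and 2.38 FPKM in sh-IUR1. In both genes the unnumbered sh-luc library was the highest and sh-IUR1 r1 the lowest, and the groups overlapped. For SOCS4 the log2 fold change was -0.17, with a 95% interval from -0.42 to 0.074 and an adjusted p of 0.930 from limma, and it was -0.075 without sh-IUR1 r1 and -0.26 without sh-IUR1 r2. For SOCS5 it was -0.12, with a 95% interval from -0.36 to 0.11 and an adjusted p of 0.930 from limma, and -0.028 without the unnumbered sh-luc library and -0.21 without sh-luc r1.

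SOCS6 is known for binding the receptor tyrosine kinase KIT, and SOCS7 for binding adaptor proteins such as NCK1. SOCS6 lies at chr18:70289045-70330199 and was expressed at 2.30, 2.26 and 2.18 FPKM in sh-luc and at 1.96, 2.10 and 2.34 FPKM in sh-IUR1. It varied least of the 8 members, and its highest and lowest values were both in the sh-IUR1 group. For SOCS6 the log2 fold change was -0.053, with a 95% interval from -0.23 to 0.13 and an adjusted p of 0.942 from limma. It was -0.013 without the unnumbered sh-IUR1 library and -0.10 without sh-IUR1 r2. SOCS7 lies at chr17:38351844-38405593 and was expressed at 3.89, 4.32 and 4.18 FPKM in sh-luc and at 4.52, 4.80 and 4.39 FPKM in sh-IUR1. All 3 sh-IUR1 libraries were above all 3 sh-luc libraries, by 0.07 FPKM at the closest pair. For SOCS7 the log2 fold change was 0.12, with a 95% interval from -0.060 to 0.30 and an adjusted p of 0.930 from limma. With each library left out in turn it was between 0.085 and 0.15.

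**Figure D2:**
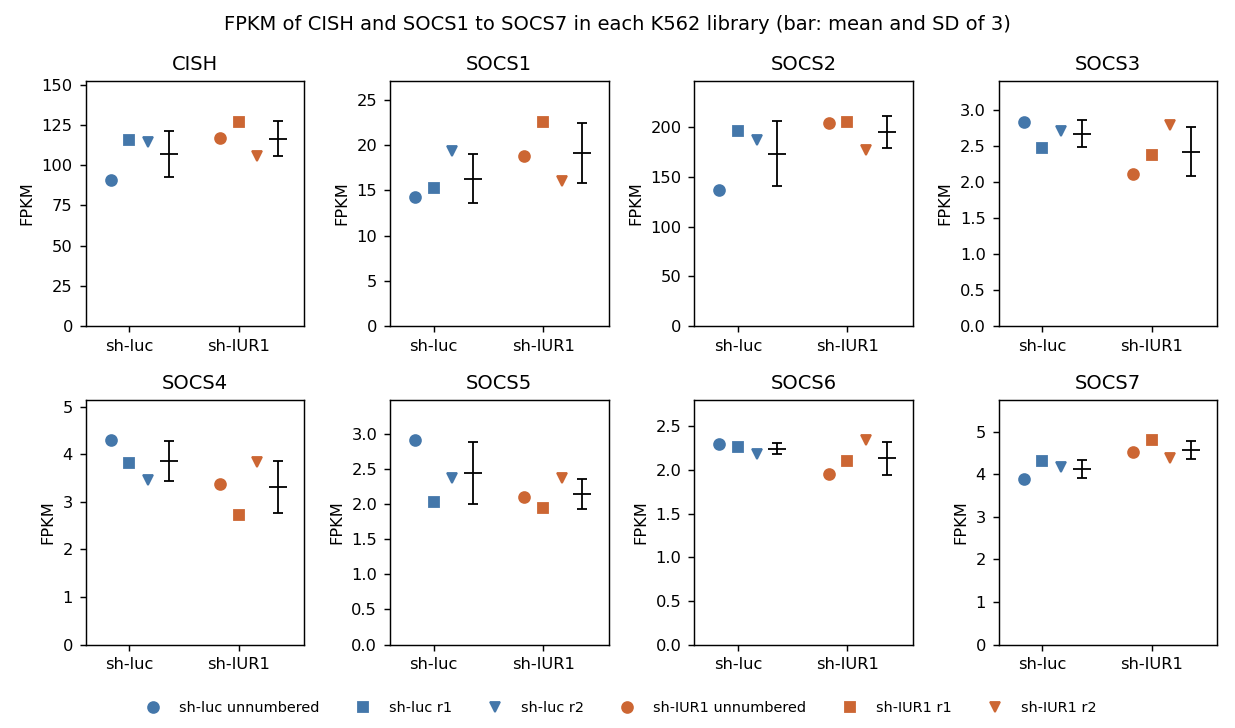
FPKM of each family member in the 6 K562 libraries, with axes from 0. Symbols are single libraries (circle unnumbered, square r1, triangle r2) and black bars are the mean and SD of 3. The groups overlap in every panel except that of SOCS7, where sh-luc lies between 3.89 and 4.32 FPKM and sh-IUR1 between 4.39 and 4.80 FPKM.

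By the limma test, 0 of the 8 members and 0 of the 12276 genes tested (0%) had an adjusted p under 0.05. At an unadjusted p under 0.05 there were 0 members and 325 genes, or 2.65% of those tested. That count of genes was 856 without sh-luc r1, 711 without sh-IUR1 r2 and 158 without the unnumbered sh-IUR1 library. Among the members, SOCS1 came below this threshold without sh-luc r2, beside 297 of the 12276 genes tested. It also did so without sh-IUR1 r2, beside 711 of the 12276 genes. Mean log2 values were higher in sh-IUR1 for 4 members (CISH, SOCS1, SOCS2 and SOCS7) and lower for 4 (SOCS3, SOCS4, SOCS5 and SOCS6), and 0 of these directions turned under the other scalings tried or with a library left out. The median log2 fold change of the members was 0.033, beside 0.019 over all genes tested, of which 58.0% had a value above 0. The members' median turned to -0.0083 without the unnumbered sh-luc library and to -0.013 with quantile normalization. Two-sided exact permutation tests gave p = 0.1 for SOCS7 and p between 0.3 and 0.5 for the other 7 members, where 0.1 is the smallest p that 3 libraries against 3 allow. On the log2(FPKM + 1) scale the change of genes with few FPKM, such as SOCS3 to SOCS7, is understated.

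The groups did not overlap for 1 of the 8 members (12.5%), SOCS7, beside 7.07% of all genes tested, and beside 4.04% of all genes that were higher in sh-IUR1 without overlap. This share over 8 genes rests on a single gene. The count depended on the libraries used. Without sh-IUR1 r2 it was 6 of 8, with CISH, SOCS2 and SOCS7 higher and SOCS3, SOCS4 and SOCS6 lower in sh-IUR1, beside 25.2% of all genes tested. Without sh-luc r2 it was 2 of 8, SOCS1 and SOCS7, beside 14.2%. With any other library left out it stayed at 1 of 8, SOCS7. The share of all genes was then 12.6% without the unnumbered sh-luc library and 22% without sh-luc r1. It was 11.9% without the unnumbered sh-IUR1 library and 14.2% without sh-IUR1 r1.

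**Figure D3:**
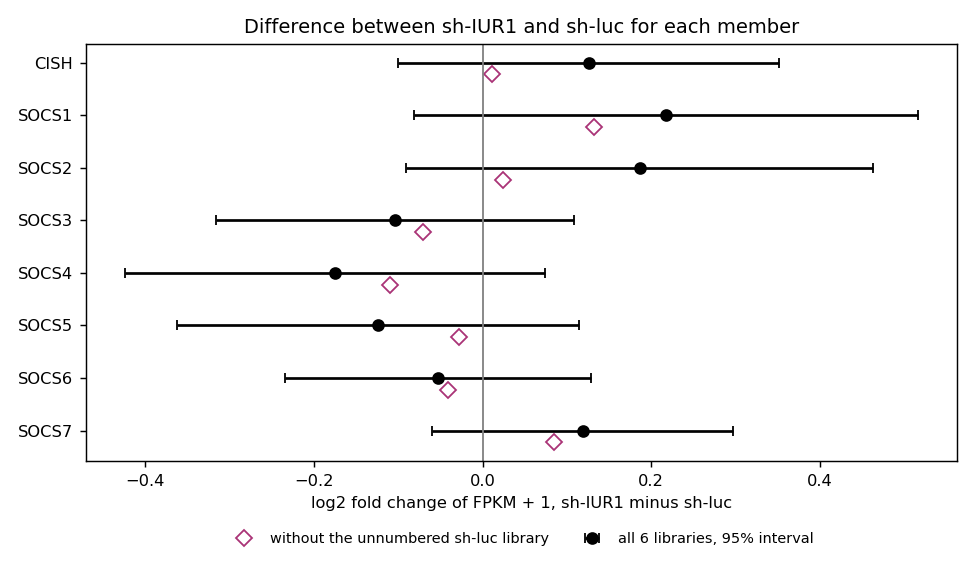
Log2 fold change of FPKM + 1 between sh-IUR1 and sh-luc for each member, as black points with 95% intervals from limma over all 6 libraries, and as open diamonds without the unnumbered sh-luc library. Every interval includes 0, and the diamonds of CISH (0.012), SOCS2 (0.024) and SOCS5 (-0.028) lie close to 0.

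The extremes of the members' values often fell in the same libraries. The unnumbered sh-luc library was the lowest of the 6 for 4 members, CISH, SOCS1, SOCS2 and SOCS7, and the highest for 3, SOCS3, SOCS4 and SOCS5. Library sh-IUR1 r1 was the highest for CISH, SOCS1, SOCS2 and SOCS7 and the lowest for SOCS4 and SOCS5, while over all genes tested it was the highest for 25.9% and the lowest for 22.3%. SOCS3 and SOCS6 had their lowest value in the unnumbered sh-IUR1 library, and SOCS6 its highest in sh-IUR1 r2. Whether the members share a pattern beyond that of other genes was not tested. On the log2(FPKM + 1) scale, SOCS2 in the unnumbered sh-luc library was -0.42 from its mean of 6 libraries, CISH was -0.29 and SOCS1 was -0.28, while SOCS5 was 0.25 and SOCS4 0.22 above theirs. In sh-IUR1 r1, SOCS1 was 0.35 above its mean and SOCS4 was -0.29 from its mean. The SD of log2(FPKM + 1) over the 6 libraries was 0.24 for SOCS1 and 0.22 for SOCS2, larger than that of 95.8% and 94.7% of the genes tested. It was 0.065 for SOCS6 and 0.083 for SOCS7, larger than that of 19.5% and 36.6%, and its median over all genes was 0.098. The highest value was 1.58 times the lowest for SOCS1, 1.57 times for SOCS4, 1.50 times for SOCS2 and 1.19 times for SOCS6.

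**Figure D4:**
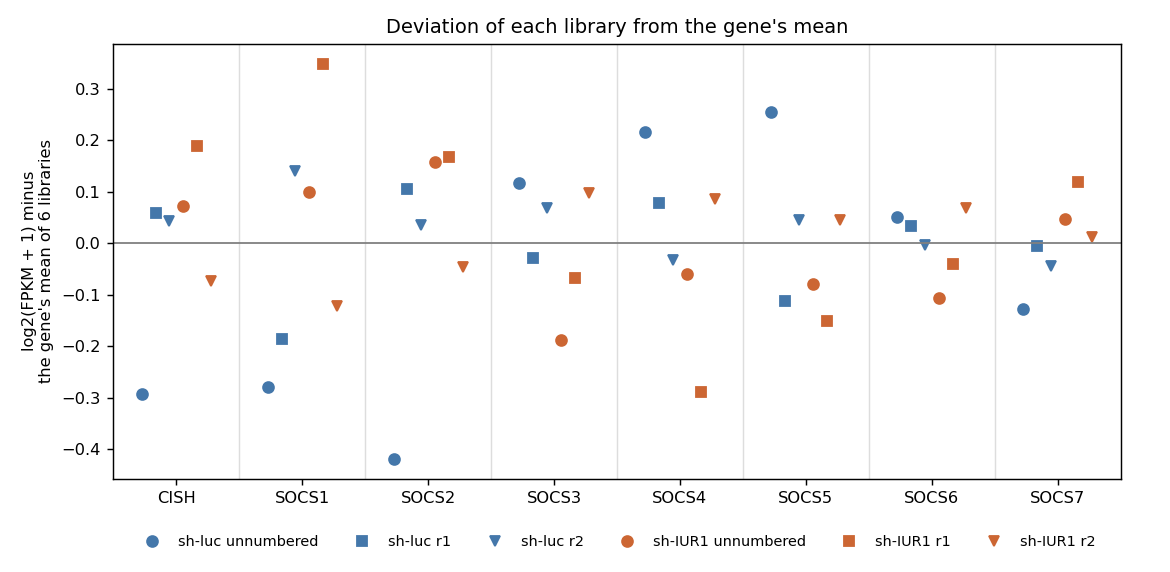
Deviation of log2(FPKM + 1) in each library from the gene's mean over 6 libraries. The unnumbered sh-luc library (blue circle) lies lowest for CISH, SOCS1, SOCS2 and SOCS7 and highest for SOCS3, SOCS4 and SOCS5, from -0.42 for SOCS2 to 0.25 for SOCS5.

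Genes of the integrated stress response, a program induced by amino acid shortage and other stresses through ATF4, were lowest in sum in the unnumbered sh-luc library, as were CISH and SOCS2. Of 21 listed genes 20 were tested, and VLDLR was not analysed here. In the control libraries their FPKM summed to 1707, 3170 and 2846, and in the sh-IUR1 libraries to 3191, 3580 and 2647. DDIT4, the most abundant of them, was at 169, 599 and 492 FPKM in sh-luc and at 551, 620 and 479 FPKM in sh-IUR1. The 6 libraries stood in the same order by this sum as by CISH and by SOCS2, with the unnumbered sh-luc library lowest, then sh-IUR1 r2, sh-luc r2, sh-luc r1, unnumbered sh-IUR1 and sh-IUR1 r1. The other members stood in other orders. SOCS1 and SOCS7 were also lowest in the unnumbered sh-luc library, while SOCS3, SOCS4 and SOCS5 were highest in it. That library held the lowest value for 38.4% of all genes tested. Single genes of the list could differ from the order of the sum. ATF4 was at 252, 295 and 289 FPKM in sh-luc and at 286, 280 and 297.5 FPKM in sh-IUR1, lowest in the unnumbered sh-luc library but highest in sh-IUR1 r2, and DDIT4 was higher in sh-luc r1 than in the unnumbered sh-IUR1 library. All 20 had a log2 fold change above 0, with a median of 0.34 and 0 genes at an adjusted p under 0.05, and the median was 0.064 without the unnumbered sh-luc library and 0.51 without sh-luc r1. Those with the smallest p were SLC7A11 (log2 fold change 0.44), CARS1 (0.36) and DDIT3 (0.46). The part of the stress response in the members' values was not tested.

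For each member the 2 genes most alike over the 6 libraries were found by Pearson's r of log2(FPKM + 1), among the other 10571 genes with a symbol and a mean of at least 1 FPKM, as a description. For CISH these were HOXB9 (r = 0.9997) and DPF2 (r = 0.9991), for SOCS2 ZNF740 (r = 0.998) and BRAP (r = 0.998), and for SOCS1 B4GALT3 (r = 0.996) and RARG (r = 0.992). The order of the 6 libraries was the same in each of these pairs (Spearman's rho of 1). For SOCS3 they were STMN3 (r = 0.995) and ZC3H18 (r = 0.989), for SOCS4 RBM6 (r = 0.995) and PSMD5 (r = 0.990), and for SOCS5 C2CD2 (r = 0.998) and PTMA (r = 0.997). For SOCS6 they were HIVEP1 (r = 0.982) and PRKCD (r = 0.976), and for SOCS7 PGLS (r = 0.999) and NPHP4 (r = 0.996). These genes were picked for the highest r among 10571 over only 6 libraries, so their r is high by selection. The number of genes with r above 0.99 differed between members. It was 77 for CISH, 30 for SOCS2, 10 for SOCS5, 5 for SOCS1 and 4 for SOCS7. For SOCS3 and SOCS4 it was 1 each, and for SOCS6 it was 0. Why these counts differ was not tested.

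The genes that act upstream of the family were also detected. Of 11 listed JAK kinases and STAT factors, 9 were tested and JAK3 and STAT4 were not analysed here. STAT5A was the most abundant, at 119, 138 and 140 FPKM in sh-luc and 136, 141 and 135 FPKM in sh-IUR1, so only the unnumbered sh-luc library was apart. The smallest unadjusted p belonged to the kinase TYK2, with a log2 fold change of 0.17, followed by STAT6 (0.11) and STAT5B (0.11). Of the 9 genes, 6 had a log2 fold change above 0, with a median of 0.026, and 0 passed the test or had groups without overlap. The median was -0.016 without the unnumbered sh-luc library and 0.064 without sh-luc r1.

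Of 25 listed cytokine receptor chains, 15 were tested, with 11 log2 fold changes above 0, a median of 0.043 (between 0.0022 and 0.049 with a library left out, and -0.0041 with quantile normalization) and 0 genes past the adjusted test. At an unadjusted p under 0.05 there was 1 of the 15 (6.67%), LIFR, beside 2.65% of all genes tested. The most abundant was the leptin receptor LEPR, with a mean of 48.0 FPKM over the 6 libraries. LIFR, the receptor of leukemia inhibitory factor, was at 7.30, 7.88 and 7.52 FPKM in sh-luc and at 9.19, 8.49 and 8.94 FPKM in sh-IUR1. All 3 sh-IUR1 libraries were above all 3 sh-luc libraries, the only receptor chain of the 15 (6.67%) for which the groups did not overlap, beside 7.07% of all genes. Its log2 fold change was 0.20, with an adjusted p of 0.930 from limma. IFNGR1 (0.15) and IL6ST (0.14), a partner chain of LIFR and the receptor chain that SOCS3 binds, had the next smallest p, and their groups overlapped.

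Of 13 other inhibitors of JAK-STAT signaling, all 13 were tested, with a median log2 fold change of 0.036 (between 0.0075 and 0.071 with a library left out), 9 values above 0 and 0 past the test or without overlap. The phosphatase PTPN2 was the most abundant, with a mean of 39.6 FPKM. The smallest p belonged to USP18, an inhibitor of interferon receptor signaling (log2 fold change 0.17), SH2B3, an adaptor that limits JAK2 (0.15), and the phosphatase PTPRC (0.088), which was at 0.41 FPKM or less in every library.

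The partners of the SOCS box were all expressed. Of the 9 listed ligase genes, 9 were tested, with 6 log2 fold changes below 0, a median of -0.031 (0.030 without the unnumbered sh-luc library) and 0 past the test or without overlap. RBX1, a RING subunit of cullin ligases, was at 59.1, 42.3 and 44.05 FPKM in sh-luc and at 40.3, 38.0 and 43.1 FPKM in sh-IUR1. The unnumbered sh-luc library was well above the other 5 libraries. Its log2 fold change was -0.24, followed in p by those of elongin C, ELOC (-0.12), and elongin B, ELOB (-0.054). The ubiquitin-like modifier NEDD8 was the most abundant at 161.9 FPKM, a value that is uncertain because a readthrough gene overlaps it. Of 28 other genes for SOCS box proteins, 14 were tested, with 8 log2 fold changes above 0, a median of 0.026 (between -0.0029 and 0.041 with a library left out, and -0.011 with quantile normalization) and 0 past the test or without overlap. WSB1 was the most abundant at 43.5 FPKM, and the smallest p belonged to SPSB2 (log2 fold change 0.17), ASB6 (-0.14) and SPSB3 (0.14).

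Of 10 other STAT5-responsive genes, 9 were tested, with 7 log2 fold changes above 0, a median of 0.028 (between -0.00065 and 0.082 with a library left out) and 0 past the test, and OSM was not analysed here. The kinase gene PIM1 was the most abundant, at 436, 621 and 591 FPKM in sh-luc and at 648, 692 and 527 FPKM in sh-IUR1. Its libraries stood in the same order as those of CISH and SOCS2. The survival gene MCL1 was at 52.5, 46.9 and 47.0 FPKM in sh-luc and at 44.3, 41.9 and 46.2 FPKM in sh-IUR1, with every sh-IUR1 library below every sh-luc library, the only one of the 9 (11.1%) without overlap, beside 7.07% of all genes tested. Log2 fold changes were -0.26 for ID1, -0.14 for MCL1, 0.12 for MYC and 0.19 for PIM1. BCL6, which STAT5 is known to repress rather than induce, was in this list. In its promoter windows, 1 also held 4 matches to TTCNNNGAA and the other held 0. The windows available for PIM1, PIM2, ID1, BCL2L1 and CCND3 held 0 matches to this motif.

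**Figure D5:**
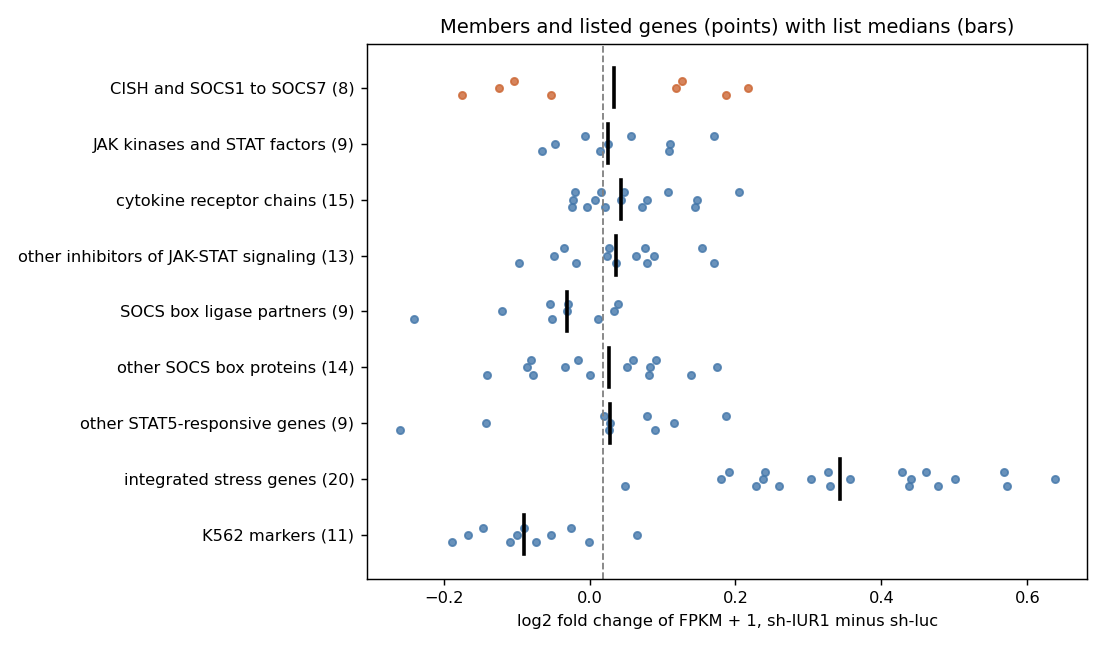
Log2 fold change of FPKM + 1 between sh-IUR1 and sh-luc for the 8 members (orange) and for the genes of each list (blue), with the number tested in parentheses. Black bars are medians and the dashed line is the median of all genes tested, 0.019. The stress genes lie at a median of 0.34 and the other lists shown between -0.090 and 0.043.

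Markers of the erythroid leukemia line itself were expressed. All 11 listed genes were tested, and their FPKM summed to 6894, 5356 and 5913 in the control libraries and to 5499, 5249 and 5848 in those with sh-IUR1, highest in the unnumbered sh-luc library. The most abundant was the fetal globin gene HBG2, with a mean of 2915 FPKM, which has a near-identical copy in HBG1, so the values of both are uncertain. Their median log2 fold change was -0.090, -0.033 without the unnumbered sh-luc library and -0.16 without sh-luc r1, with 10 of 11 below 0 and 0 past the test. The smallest p belonged to HBE1 (log2 fold change -0.11), HBG1 (-0.19) and LMO2 (-0.17), and HBE1 was the only one of the 11 (9.09%) without overlap, beside 7.07% of all genes tested. Without HBG1 and HBG2 the other 9 genes summed to 1729, 1512 and 1638 FPKM in the control libraries and to 1533, 1601 and 1633 FPKM in those with sh-IUR1, a sum chosen after seeing the data. The unnumbered sh-luc library was the highest with and without this pair, and the part of these markers in the members' values was not tested.

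Of the listed markers of other blood cells, 1 of 5 for T cells, 1 of 3 for monocytes and 1 of 4 for megakaryocytes were tested. The T cell gene CD3D was at a mean of 4.11 FPKM, CD3E and CD3G were near 0 at means of 0.080 and 0.082 FPKM, under the filter, and CD2 and CD5 were not analysed here. The B cell gene CD79A was at 0.160 FPKM, the megakaryocyte gene ITGA2B at 1.76 FPKM and the monocyte gene LYZ at 113.6 FPKM, with CD14 and CSF1R not analysed here. Of the 4 tested genes named here, 0 passed the test or had groups without overlap.

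Some members share their locus with other genes. In RefSeq, CISH overlaps MAPKAPK3 by 255 bases, and MAPKAPK3 was at 49.5, 49.8 and 52.7 FPKM in sh-luc and at 48.2, 50.2 and 48.6 FPKM in sh-IUR1. These values were nearly level, unlike those of CISH. SOCS1 lies within the long noncoding gene LOC105371082, SOCS2 overlaps SOCS2-AS1 by 1430 bases and SOCS3 overlaps SOCS3-DT by 478 bases, and these 3 genes were not analysed here. Whether the authors' values use the strand of the reads is not given in the sources used here, so reads from the overlapping stretches cannot be told apart.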

How the data were processed

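The 6 libraries were grouped by their labels. According to the methods, the authors trimmed and masked the reads, mapped them to hg38 and computed RPKM with SAMtools 0.1.19, while the header of the deposited table names FPKM, given with 2 decimals. The aligner, the annotation release and the strand setting are not given in the sources used here. The deposited table also holds a score (the z-score of FPKM per gene), a cluster number and a membership fraction made by the authors, which were not used. It lists 12486 genes, each with an SD of at least 0.0501 FPKM, so nearly constant genes lie outside every count.

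Entrez identifiers were matched to RefSeq GRCh38.p14 (12363 symbols). Genes whose mean reached 0.1 FPKM were kept, and their log2(FPKM + 1) was modelled by group in R 4.3.3 using lmFit and trended eBayes of limma 3.58.1. Adjustment for all 12276 genes followed Benjamini and Hochberg. Exact permutation tests were two-sided. Simulated data with known changes were used to test the limma step. Promoter motifs were searched, and other steps run, with Python 3.11.15, matplotlib 3.10.9, scipy 1.17.1, numpy 2.4.6 and pandas 2.3.3. Alternatives were leaving out each library, a replicate block, eBayes without a trend, quantile normalization, median-ratio scaling, a filter at 1 FPKM or none, and a pseudocount of 0.1.

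The members and lists were chosen with earlier results of these data known. Named genes are the members, the most abundant gene and up to 3 genes with the smallest p in each list, and the 2 genes most like each member; MAPKAPK3, ATF4, BCL6 and the overlapping noncoding genes were added after the values were seen. A listed marker gene is not reported here. FPKM summed over the table to 606240, 586024 and 585905 for the control libraries and to 584589, 596028 and 579820 for sh-IUR1, which are not depths. Low FPKM values of 39 single-exon genes came out as whole fragments (within 0.005 FPKM and at most 0.15 fragments) in at most 37.2% of 223 cases, where an even spread gives 24.3%, so the depth behind each value is unknown.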

Additional observations from a re-analysis of the deposited data

How the results depend on the processing

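With an adjusted p under 0.05, limma called 0 genes under each of the 13 alternatives. The 104 log2 fold changes of the 8 members under these alternatives kept their direction, with adjusted p-values between 0.667 and 0.9997, and 0 were called. The number of genes at an unadjusted p under 0.05 was 325, and it was 533 with the replicate block. With 1 library left out it was between 158 and 856. Members without overlap then numbered between 1 and 6, beside 11.9% to 25.2% of all genes tested. With all libraries there was 1 such member, beside 7.07% of all genes. The cause was not tested, although groups of fewer libraries overlap less often by construction. The median log2 fold change of the members, 0.033, moved by less than the SD between libraries (0.058) under every alternative, but it turned to -0.013 with quantile normalization and to -0.0083 without the unnumbered sh-luc library. Of 156 medians of lists, 150 moved by less than their SD and 6 by more, 5 of them of the K562 markers with a library left out and 1 of another marker list with a minimum mean of 1 FPKM.

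The main test did not pair libraries by their numbers, and the sources used here do not say whether the numbers mark pairs. Deviations from the group means correlated across genes with r = 0.044 between the unnumbered libraries, 0.39 between those numbered r1 and -0.34 between those numbered r2. Not every library correlated best with its own number. With 3 libraries per group these correlations cannot settle whether the libraries were paired. The p-values measure only the spread between these libraries; the methods describe independent groups of cells, without saying whether they were separate infections. With 3 libraries per group, the 95% intervals of the members reach log2 changes of 0.52 upward and -0.42 downward, and the unknown number of fragments limits what can be said of members with few FPKM.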
